A study of Drosophila melanogaster with 20 samples.

Results

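Glial cells of the Drosophila embryo were compared between an early stage, 6-8 h after egg laying, and a late stage, 18-22 h after egg laying, by the small RNAs they held. The comparison rested on the 4 repo-positive libraries, 2 of each stage, out of 20 libraries in the series, chosen by their titles alone. Embryos of each age window had been dissociated, their cells fixed with 4% formaldehyde and immunostained, and a cell sorter had then split them into marker-positive and marker-negative fractions. Repo-positive cells, called enriched glia in the labels, had been stained for Repo, a homeodomain protein of the nuclei of most glia. The 4 repo-negative libraries of the same 2 stages (the remaining embryo cells of those sorts) and the 4 elav-positive libraries (stained for Elav, a neuronal RNA-binding protein) served as comparisons. No group carried a mutation or a drug treatment in the labels, which name no strain. The 2 libraries within each group are described as biological duplicates, and p-values measure the spread between them.

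MicroRNAs are short RNAs cut from hairpin precursors, and with Argonaute proteins they lower the output of messenger RNAs that match their seed. In flies some of them act as switches between developmental phases: the cluster around mir-309 is made at the onset of zygotic transcription and helps to clear maternal messenger RNAs, while the let-7 complex is made late, with the ecdysone pulses of metamorphosis. Embryonic glia are specified by the transcription factor Gcm, which turns on repo, and later close the blood-brain barrier with septate junctions and take up transmitters and ions around neurons.

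The values are expected counts of reads per annotated feature. A level is given as CPM, a count scaled to a fixed library total: the total of the hairpin counts for microRNA hairpins, and the total over the other features for everything else, in both cases with TMM scaling. A change is the log2 fold change of 18-22 h over 6-8 h with its standard error, n = 2 libraries per stage, from edgeR's quasi-likelihood test, and it was called at an adjusted p under 0.05. The repo-positive libraries held 9930781 to 14580163 counts each. Hairpins took 20.2% and 8.34% of them at 6-8 h, replicate 1 first, and 25.04% and 16.0% at 18-22 h, or 828463 to 3650568 counts. Ribosomal RNA took 26.8 to 52.5%, with the highest share in the 6-8 h replicate 2 library, which had the lowest hairpin share. Each call was also looked at without each of the 4 repo-positive libraries in turn, a fit in which the remaining library of that stage is taken to vary like the other groups. Fragments of repo itself were at 210 and 235 CPM at 6-8 h and at 130 and 131 CPM at 18-22 h, against 2.82 to 5.13 CPM in the repo-negative libraries. All repo-positive libraries were far above all repo-negative ones, and the lower late level did not pass the test (-0.77 ± 0.33, adjusted p = 0.214).

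Of 237 annotated hairpins, 148 passed the filter on low counts. The 89 others had at most 17 counts over the 4 repo-positive libraries, and 42 of them had 0. Among the 148, 29 hairpins changed between early and late glia, which is 19.6% of those tested. The level of 19 hairpins rose (12.8%) and that of 10 fell (6.76%), and in all 29 the libraries of the stages did not overlap. Across all 148 hairpins, both late libraries lay above both early ones for 58 (39.2%) and below them for 33 (22.3%). The median change of all 148 was 0.25. All these changes are relative to the other hairpins. With hairpins scaled on all features together, the median of all hairpins rose by 0.96 and only the call of mir-956 remained (6.64, adjusted p = 0.0214). The hairpins that fell included mir-3, mir-275 and the mir-310 cluster, and those that rose included mir-956, mir-277, mir-375, mir-31a and mir-276a.

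**Figure D1:**
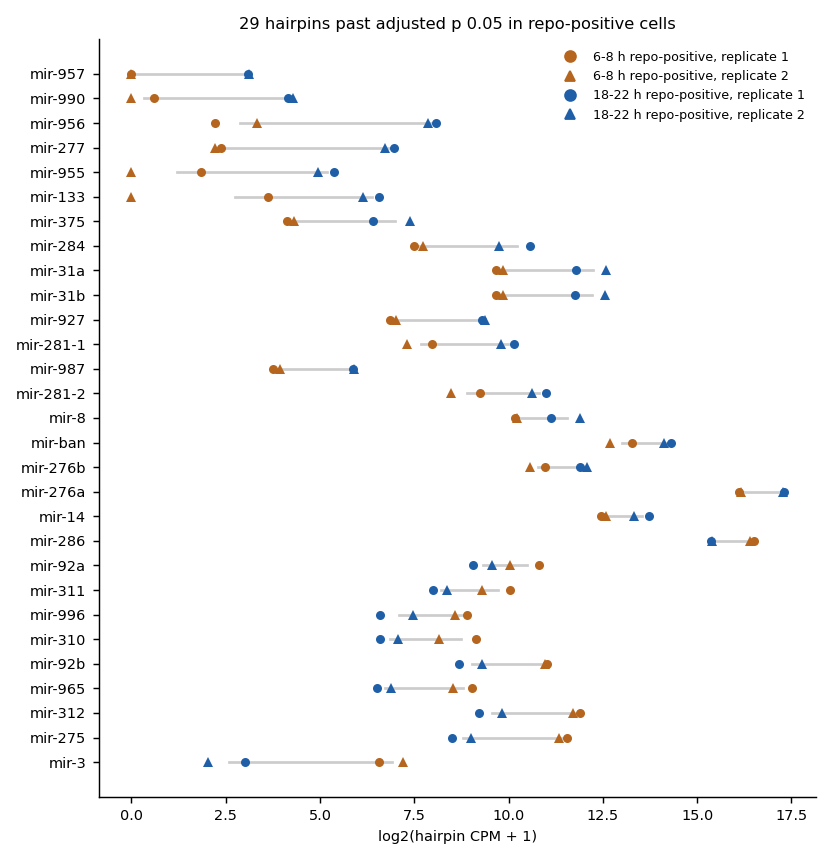
Level of each of the 29 hairpins that changed, as log2(hairpin CPM + 1), in the 4 repo-positive libraries (colour: stage, symbol: replicate, grey line: between the stage means). The 10 hairpins at the bottom fell and the 19 at the top rose, and for none of them do the stages overlap.

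Of the early zygotic cluster, mir-3 and mir-286 were lower in late glia. The 8 hairpins lie together on chromosome 2R at 19660716 to 19661774 on the minus strand (BDGP6, in the span of lncRNA:CR44504). Of these 8, 2 fell and 0 rose, beside 6.76% of all hairpins that fell. In both late libraries 5 of the 8 lay below, beside 22.3% of all hairpins. Their median change was -0.81 beside 0.25 for all hairpins. This and the other hairpin lists were chosen with earlier results of these data known. The hairpin mir-3 was at 93.8 and 146 CPM at 6-8 h and at 7.04 and 3.09 CPM at 18-22 h. Both late libraries were far below both early ones (-4.49 ± 0.58, adjusted p = 2.93e-05), a 23.7-fold lower mean. The most abundant member, mir-286, was at 92475 and 86747 CPM early and at 42258 and 43375 CPM late. It fell by a smaller factor than mir-3 (-1.07 ± 0.35, adjusted p = 0.0376), and its call ended without any of the 4 libraries (adjusted p from 0.232 to 0.446). The fall of mir-286 is relative to the other hairpins: scaled on all features together, its change was 0.0072. The remaining members did not pass the test. The hairpin mir-5 was at 57212 and 36521 CPM early and 21422 and 28054 CPM late (-0.92 ± 0.37, adjusted p = 0.09). For mir-4 the change was -0.69, for mir-309, which had 2.59 and 9.03 CPM early, it was -2.38, and for each of the near-identical mir-6 copies it was -0.46. As a whole the cluster took 19.6% and 20.5% of the hairpin counts in the early libraries and 10.1% and 10.6% in the late ones.

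Members of the mir-310 cluster, in a run of 7 hairpins on chromosome 2R at 20583752 to 20585405 on the minus strand, fell in glia as well. Its microRNAs have been studied in the fly germ line and in Wingless and Hedgehog signalling. Of the 4 tested members of the mir-310 list, 3 fell and 0 rose, with a median change of -1.70. Of all hairpins, 6.76% fell. The hairpin mir-312 was at 3831 and 3369 CPM early and at 594 and 902 CPM late, with no overlap (-2.27 ± 0.34, adjusted p = 0.00012). Levels of mir-310 were 562 and 285 CPM early and 96.2 and 133 CPM late (-1.89 ± 0.37, adjusted p = 0.00115). Levels of mir-311 were 1053 and 623 CPM early and 255 and 330 CPM late (-1.52 ± 0.33, adjusted p = 0.0029). The call of mir-312 held without each library in turn, while those of mir-310 and mir-311 ended without 6-8 h replicate 1 or either 18-22 h library (changes from -2.18 to -1.34, adjusted p from 0.057 to 0.147). The hairpin mir-313, at 14.5 and 13.5 CPM early and 3.39 and 7.73 CPM late, did not pass the test (-1.36 ± 1.03, adjusted p = 0.408). The fifth listed member, mir-2498, had 5 counts in 1 late library and 0 in the others. Of the hairpins mir-991 and mir-992 in the same run, which are not in the list, mir-991 was at 1.55 and 0 CPM early and 10.4 and 3.09 CPM late (2.88, not called), and mir-992 was below the filter.

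The related hairpins mir-92a and mir-92b, which in flies help to keep neuroblasts from differentiating early, lie next to each other on chromosome 3R (25646506 to 25651497, plus strand), mir-92a in the span of jigr1. Both fell. The hairpin mir-92b was at 2065 and 2002 CPM early and 411 and 632 CPM late (-1.96 ± 0.43, adjusted p = 0.003), and its call ended only without 18-22 h replicate 1 (-1.69, adjusted p = 0.0888). The hairpin mir-92a was at 1800 and 1057 CPM early and 536 and 753 CPM late (-1.15 ± 0.38, adjusted p = 0.0388), a call that ended without any of the 4 libraries (adjusted p from 0.109 to 0.413). The pair may share reads, so the calls are not independent.

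In some pairs of neighbouring hairpins, 1 was called lower and the other was not called. The hairpin mir-275, known in mosquitoes for a role in blood digestion and egg development, lies on chromosome 2L at 7425795 to 7425892 on the plus strand. It was at 2988 and 2598 CPM early and 361 and 516 CPM late, with both late libraries far below (-2.67 ± 0.33, adjusted p = 2.93e-05), and the call held without each library in turn. Its neighbour mir-305, directly downstream, was at 444 and 631 CPM early and 245 and 334 CPM late and did not pass the test (-0.90 ± 0.36, adjusted p = 0.0904), although both late libraries lay below both early ones. In a second such pair, on chromosome 3R at 29215585 to 29217280, mir-996 fell from 480 and 380 CPM to 96.2 and 176 CPM (-1.66 ± 0.57, adjusted p = 0.0444), with a call that ended without any of the 4 libraries and with a replicate block (adjusted p = 0.059). Its neighbour mir-279, which like mir-996 limits the formation of certain sensory neurons in flies, was at 1466 and 1594 CPM early and 1704 and 2539 CPM late (0.47 ± 0.33, adjusted p = 0.359). The differences within these pairs were not tested. The hairpin mir-965, on chromosome 2L at 243035 to 243141 on the minus strand in the span of kis, went from 518 and 369 CPM to 90.7 and 118 CPM (-2.09 ± 0.57, adjusted p = 0.0165). That call ended without either 18-22 h library (adjusted p from 0.0744 to 0.109), and fragments of kis had a change of -0.53 (adjusted p = 0.356).

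The steepest rises were in hairpins that were nearly absent from early glia. The hairpin mir-956 was at 3.63 and 9.03 CPM at 6-8 h and at 267 and 233 CPM at 18-22 h, a 39.5-fold higher mean (5.36 ± 0.96, adjusted p = 0.000535). The hairpin mir-277, a regulator of branched-chain amino acid breakdown in flies, was at 4.14 and 3.61 CPM early and 124 and 105 CPM late, 29.5-fold higher (4.85 ± 0.75, adjusted p = 0.000168). For both, every late library was more than an order of magnitude above every early one, and both calls held without each library in turn. On chromosome 3R, mir-277 (10100022 to 10100121, plus strand) lies between mir-317 and mir-34. Levels of mir-317 were 38.3 and 30.7 CPM early and 41.4 and 35.6 CPM late (0.16), and those of mir-34, which acts in ageing fly neurons, were 3.11 and 9.03 CPM early and 14.1 and 8.25 CPM late (0.91), neither past the test.

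Counts of other late hairpins were close to the limit of detection in early glia. The hairpin mir-955 had 5 and 0 counts early (2.59 and 0 CPM) and rose to 40.7 and 29.9 CPM (4.53 ± 1.20, adjusted p = 0.0163). The hairpin mir-990 had 1 count over both early libraries and 100 over both late ones, a ratio of 52.6 with a 95% counting interval of 9.23 to 2098 (adjusted p = 0.0376). For mir-957 there were 0 counts early and 44 late, at least 7.71-fold higher by a floor of 3 counts over the early group (adjusted p = 0.0362). Such intervals and floors cover counting error only. The calls of mir-990 and mir-957 ended without any of the 4 libraries, and that of mir-955 without 6-8 h replicate 2 or 18-22 h replicate 1 (adjusted p from 0.0685 to 0.101). Fragments of CG8910, in whose span mir-990 lies, were at 0.563 CPM early and 0.493 CPM late.

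Beside 12.8% of all hairpins, all 5 hairpins of an epithelial and gut list rose, with a median change of 2.31. They comprise 3 kinds: mir-8, the fly member of the mir-200 family, the near-identical pair mir-31a and mir-31b, and the pair mir-281-1 and mir-281-2. Levels of mir-31a were 815 and 929 CPM early and 3516 and 6102 CPM late (2.46 ± 0.43, adjusted p = 0.000456), and mir-31b followed with 813 and 925 CPM early and 3473 and 6057 CPM late. Levels of mir-281-1 were 251 and 156 CPM early and 1133 and 883 CPM late (2.31 ± 0.49, adjusted p = 0.00248), and those of mir-281-2 were 601 and 353 CPM early and 2020 and 1576 CPM late (1.91 ± 0.44, adjusted p = 0.00405). The late libraries were all well above the early ones, but the members of each pair can share reads and are not independent. The hairpin mir-8 was at 1154 and 1186 CPM early and 2243 and 3779 CPM late (1.36 ± 0.43, adjusted p = 0.0362). Both mir-281 copies lie in Oda, whose own fragments went from a mean of 54.9 to 112 CPM without passing the test (adjusted p = 0.066). The mir-31 calls ended without 6-8 h replicate 1 or 18-22 h replicate 2 (adjusted p from 0.051 to 0.0918), that of mir-281-1 without 6-8 h replicate 1 (2.36, adjusted p = 0.0521), that of mir-281-2 without either early library or 18-22 h replicate 1 (adjusted p from 0.05 to 0.0918), and that of mir-8 without either early library or 18-22 h replicate 2 (adjusted p from 0.101 to 0.478).

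Of 12 nervous system hairpins, 2 rose and 0 fell, a share near the 12.8% of all hairpins that rose. Their median change was 1.01, and for 7 of them both late libraries lay above both early ones, beside 39.2% of all hairpins. Those called were mir-957 and mir-927, in the span of mmd, which went from 114 and 129 CPM to 623 and 666 CPM (2.41 ± 0.55, adjusted p = 0.00405), a call that ended without 6-8 h replicate 1 or 18-22 h replicate 2 (adjusted p from 0.0509 to 0.133). The neuronal hairpin mir-124 was at 100.5 and 84.9 CPM early and at 31.5 and 61.4 CPM late, below in both late libraries but not past the test (-1.003, adjusted p = 0.189). The hairpin mir-137 was at 35.7 and 75.0 CPM early and 206 and 284 CPM late (2.15, adjusted p = 0.09). Of the muscle pair, mir-133 went from 11.4 and 0 CPM to 93.6 and 70.1 CPM (3.73 ± 1.06, adjusted p = 0.0211), a call that ended without 6-8 h replicate 2 or 18-22 h replicate 1 (adjusted p from 0.0846 to 0.101). The abundant muscle hairpin mir-1 was at 17257 and 2490 CPM early and 22304 and 19751 CPM late, so that the early libraries differed from each other by more than the stages did (1.09 ± 0.68, adjusted p = 0.298).

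Further rises were of hairpins with other known roles. The hairpin mir-375, known in mammals from insulin-secreting cells, went from 16.6 and 19.0 CPM to 83.9 and 167 CPM (2.82 ± 0.53, adjusted p = 0.000849). The hairpin mir-284, in the span of Octbeta2R, went from 180 and 213 CPM to 1513 and 862 CPM (2.59 ± 0.74, adjusted p = 0.0211). For mir-987 the levels were 12.4 and 14.5 CPM early and 57.3 and 58.8 CPM late (2.11 ± 0.70, adjusted p = 0.0402). Late libraries of all of them lay well above the early ones, yet the call of mir-375 ended without 6-8 h replicate 1 or 18-22 h replicate 2 (adjusted p from 0.0744 to 0.106), that of mir-284 without replicate 1 of either stage (adjusted p from 0.109 to 0.133), and that of mir-987 without any of the 4 libraries.

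In the growth and broadly expressed list, 3 of 7 hairpins rose and 0 fell, beside 12.8% of all hairpins that rose. Bantam (mir-ban), which promotes growth and survival in flies and has been studied in their glia, was at 9875 and 6557 CPM early and at 20340 and 17962 CPM late (1.22 ± 0.37, adjusted p = 0.0268). Levels of mir-276a, which acts on a dopamine receptor in fly memory, were 70810 and 73420 CPM early and 161023 and 157442 CPM late (1.14 ± 0.37, adjusted p = 0.0371), and its relative mir-276b had 2011 and 1515 CPM early and 3810 and 4326 CPM late (1.21 ± 0.41, adjusted p = 0.0444). The hairpin mir-14, which curbs cell death and acts in fat and insulin metabolism in flies, was at 5624 and 6165 CPM early and 13550 and 10266 CPM late (1.01 ± 0.30, adjusted p = 0.0262). These abundant hairpins changed by about a doubling with the stages well apart, but all of their calls ended without any of the 4 libraries (adjusted p from 0.168 to 0.657). Of the other hairpins studied in fly glia, mir-274 and mir-285 had 0 counts in all 4 libraries, and mir-228 was not analysed here.

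The most abundant hairpin did not pass the test. The hairpin mir-184 was at 529354 and 385055 CPM early and 484654 and 476870 CPM late (0.07 ± 0.51, adjusted p = 0.946), or 49.5% and 51.5% of the hairpin counts early and 50.9% and 48.4% late. The share of mir-276a went from 6.62% and 9.81% to 16.9% and 16.0%, while that of mir-286 went from 8.64% and 11.6% to 4.44% and 4.40%. The Hox-cluster hairpin mir-10 took 9.12% and 3.98% early and 5.38% and 4.41% late, with a spread between the early libraries wider than between the stages (-0.43, adjusted p = 0.613). Of the 10 most abundant hairpins at each stage, 7 were the same. Levels of mir-7, which acts in fly sense organs, also overlapped between stages (49266 and 19356 CPM early, 29599 and 38782 CPM late).

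**Figure D2:**
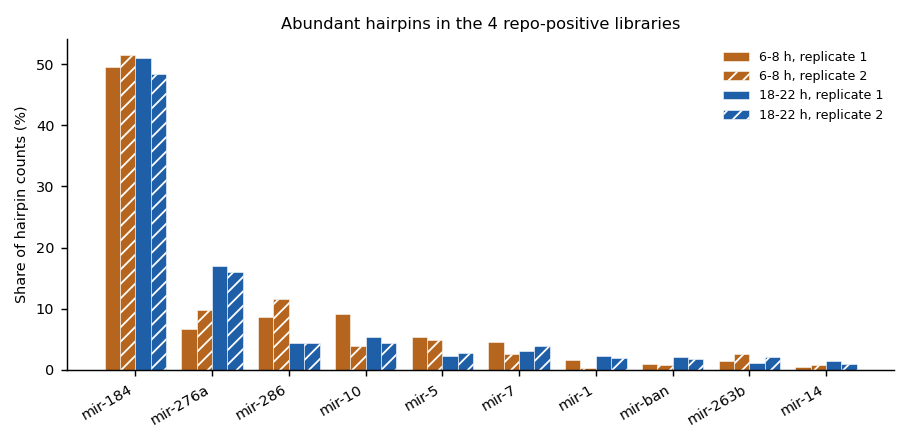
Share of the hairpin counts (%) held by each of 10 abundant hairpins in the 4 repo-positive libraries (colour: stage, hatching: replicate 2). The shares of mir-184 lie at 48.4 to 51.5% in all 4 libraries, while those of mir-276a are higher and those of mir-286 lower at 18-22 h.

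Several microRNA groups known from developmental timing or neural fate did not pass the test in glia. In the let-7 complex none of 3 hairpins was called, and mir-let7 was at 14.0 and 0.903 CPM early and 9.12 and 4.12 CPM late. In the list of K-box hairpins, which target Notch pathway genes in flies, 0 of 9 tested were called (median 0.13). None of 4 Hox-cluster hairpins and none of 9 mirtrons, hairpins spliced out as short introns, were called either. In the mir-12 cluster 0 of 3 were called, although all 3 lay above in both late libraries, beside 39.2% of all hairpins. Among them was mir-283 with 2239 and 1722 CPM early and 3307 and 4735 CPM late (1.02 ± 0.36, adjusted p = 0.0519). Of 9 sensory and precursor hairpins, 1 fell (mir-996) and 0 rose. Of 8 metabolic hairpins, 2 rose (mir-14 and mir-277) and 1 fell (mir-275). Among all hairpins tested, 12.8% rose and 6.76% fell.

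Most hairpin changes of glia had the same direction in other cells of the embryo. In repo-negative cells 55 of the 148 hairpins changed between the same stages (37.2%), 34 up (23.0%) and 21 down (14.2%). In elav-positive cells 31 changed (20.9%), 18 up (12.2%) and 13 down (8.78%), but their 6-8 h replicate 2 library held only 70156 hairpin counts (1.01% of its counts). All 29 hairpins that changed in glia had a fitted change of the same sign in repo-negative cells, where 26 were called the same way and 0 the other way. In elav-positive cells 28 had the same sign, with mir-996 the exception (0.23), and 21 were called the same way. The edgeR test of the difference itself called 1 of 148 hairpins between repo-positive and repo-negative cells (0.676%). By that test 22 had an unadjusted p under 0.05, and DESeq2 called 17, so hairpins not called are not shown to change alike. Between repo-positive and elav-positive cells the edgeR test of the difference called 0 (0.0%), with 11 at an unadjusted p under 0.05. Its lowest adjusted p was 0.425, and DESeq2 also called 0. That count rests on the early elav-positive libraries, since without their replicate 1, which leaves the shallow library alone, 14 hairpins were called.

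**Figure D3:**
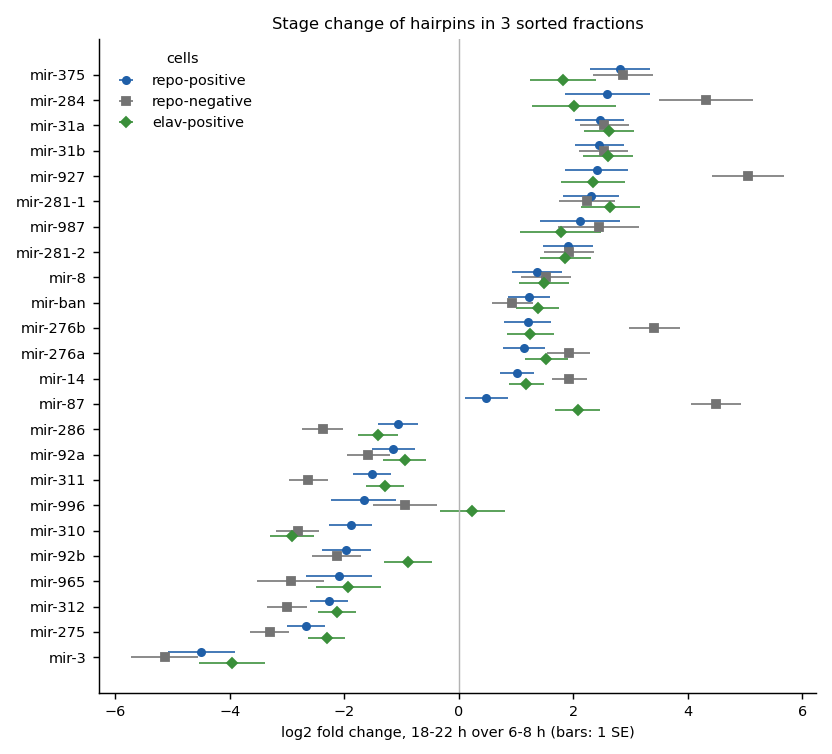
log2 fold change of 18-22 h over 6-8 h with its standard error for the hairpins that changed in repo-positive cells and had a mean of at least 10 CPM there at 6-8 h, and for mir-87, in repo-positive, repo-negative and elav-positive cells. The fractions have the same sign for all hairpins shown but mir-996, which has 0.23 in elav-positive cells, and mir-87 has 0.48 in repo-positive and 4.49 in repo-negative cells.

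The hairpin whose course was called different was mir-87, which acts in fly sensory neurons that regrow dendrites. In glia it was at 577 and 800 CPM early and at 761 and 1164 CPM late (0.48 ± 0.38, adjusted p = 0.428). In repo-negative cells it went from 47.3 and 55.6 CPM to 1304 and 1010 CPM. Glia were therefore the higher fraction early, by about an order of magnitude, and the fractions overlapped late (difference of the changes -4.01 ± 0.56, adjusted p = 0.000159). The call held without each of the 8 libraries in turn (adjusted p at most 0.00629) and ended when hairpins were scaled on all features together. In elav-positive cells mir-87 went from 942 and 1458 CPM to 6906 and 3164 CPM. A similar early excess in glia was seen for mir-252, at 2085 and 1770 CPM early and 1340 and 1745 CPM late, against 22.9 to 27.3 CPM early and 123 to 130 CPM late in repo-negative cells, but its difference did not pass the test (-2.65 ± 0.67, adjusted p = 0.054), nor did that of mir-219 (-4.58 ± 1.22, adjusted p = 0.054).

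The other features of the same libraries were short pieces of messenger RNA, small nucleolar RNA (snoRNA) and transfer RNA (tRNA). They come from size-selected libraries of fixed cells, so they are called fragments here and are not levels of messenger RNA. In such a sorted mixture, fewer cells of a type and less RNA per cell cannot be told apart. Of 11726 features tested, 434 changed in repo-positive cells (3.7%), 217 up and 217 down (1.85% each), and the median change was -0.07. The split depended on the scaling, with 104 up and 268 down when only total counts were used, where the median of all features was lower by 0.31. Under that scaling the calls of nrv2 (1.56, adjusted p = 0.0633), bark (1.73, adjusted p = 0.087), bnb (1.23, adjusted p = 0.085), Eaat2, Gat, Gs1, Pepck1, Ald1, Eno, Eip78C, brp, Syt1, Msp300, sls and Pxn and of tRNA:Thr-AGT-1-7 ended. Libraries of 18-22 h lay above both early ones for 2774 of all features (23.7%) and below them for 3059 (26.1%). Of 10239 protein-coding genes 393 changed (3.84%), 184 up (1.8%) and 209 down (2.04%).

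Calls of glial identity genes went both ways, while more of these genes lay lower than higher in late glia. Of 13 tested, 1 rose and 2 fell, beside 1.8% and 2.04% of protein-coding genes. Their median change was -0.66. In both late libraries 9 lay below and 3 above, beside 27.2% and 22.5% of protein-coding genes. Fragments of gcm, the master regulator of glial fate, were at 85.7 and 76.6 CPM early and at 3.68 and 8.20 CPM late, with no overlap (-3.77 ± 0.60, adjusted p = 0.00153), and the call held without each library. Those of ttk, which encodes a repressor of neuronal genes in glia, went from 164 and 157 CPM to 53.9 and 65.4 CPM (-1.43 ± 0.31, adjusted p = 0.0126). Those of nrv2, a sodium pump subunit of glia and septate junctions, went the other way, from 69.5 and 166 CPM to 546 and 273 CPM (1.799 ± 0.40, adjusted p = 0.0149). The call of ttk ended without any of the 4 libraries (adjusted p from 0.0546 to 0.165) and that of nrv2 without replicate 1 of either stage (adjusted p from 0.156 to 0.262). Summed over the list, levels were 897 and 1092 CPM early and 1193 and 877 CPM late, so the stages overlapped.

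Some barrier and transmitter genes rose in late glia. Of 22 genes of the blood-brain barrier and septate junctions, 3 rose and 0 fell, beside 1.8% of protein-coding genes that rose. Their median was 0.75, and 15 lay above in both late libraries (68.2% beside 22.5% of protein-coding genes). This and the other gene lists were chosen with earlier results of these data known, so such shares are descriptive only. The scaffold gene vari went from 8.20 and 18.2 CPM to 115.3 and 65.6 CPM (2.77 ± 0.54, adjusted p = 0.00646), and bark, which encodes a protein of tricellular junctions, from 43.4 and 114 CPM to 394 and 222 CPM (1.97 ± 0.45, adjusted p = 0.0185). Both calls ended without replicate 1 of either stage (adjusted p from 0.0716 to 0.219). The barrier genes Gli (37.8 and 94.3 CPM early, 153 and 114 CPM late, adjusted p = 0.187) and moody (54.9 and 92.3 CPM early, 149 and 112 CPM late, adjusted p = 0.457) did not pass the test.

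Of 11 genes of transmitter handling and astrocyte-like glia, 3 rose and 0 fell, beside 1.8% of protein-coding genes that rose. Their median was 1.63, and 10 lay above in both late libraries, beside 22.5% of protein-coding genes. Fragments of Gat, the GABA transporter, were at 133 and 163 CPM early and 610 and 611 CPM late (2.05 ± 0.53, adjusted p = 0.0367). Those of the amino acid transporter gene Eaat2 were at 0.956 and 1.85 CPM early and 16.2 and 13.2 CPM late (3.37 ± 0.87, adjusted p = 0.0359), and those of Gs1, a glutamine synthetase, at 4.78 and 5.21 CPM early and 12.4 and 15.03 CPM late (1.45 ± 0.38, adjusted p = 0.0363). All 3 had well separated stages, and all 3 calls ended without any of the 4 libraries (adjusted p from 0.112 to 0.204). The astrocyte gene alrm, at 56.6 and 79.5 CPM early and 215 and 206 CPM late (1.63 ± 0.56, adjusted p = 0.116), and the glutamate transporter gene Eaat1, at 8.88 and 25.2 CPM early and 96.2 and 49.6 CPM late (2.09 ± 0.86, adjusted p = 0.196), did not pass the test. The summed level of the list was 389 and 565 CPM early and 1447 and 1217 CPM late in repo-positive cells. In repo-negative cells it was 270 and 298 CPM early and 153 and 165 CPM late. By gene, the median change in repo-negative cells was 1.16, with 2 genes called higher and 2 lower. The test of the difference between these fractions called 0 genes of the list.

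Support and sugar metabolism genes also rose in part. Of 14 glial support, lipid and transport genes, 3 rose and 0 fell (median 0.92), beside 1.8% of protein-coding genes that rose. Fragments of apolpp, the precursor of the main lipid carrier of fly blood, went from 15.2 and 27.7 CPM to 146 and 241 CPM (3.17 ± 0.42, adjusted p = 0.000268), and those of SPARC, a collagen-binding protein, from 0.683 and 2.66 CPM to 15.5 and 10.8 CPM (2.94 ± 0.53, adjusted p = 0.0035). Those of Pepck1, a step of sugar synthesis, rose from 2.19 and 3.47 CPM to 10.6 and 10.3 CPM (1.88 ± 0.49, adjusted p = 0.036). The feature CG45087 had the same change and mean levels, so both may share reads and the gene of origin is uncertain. The call of apolpp held without each library, that of SPARC ended without 6-8 h replicate 1 (2.30, adjusted p = 0.0518) and that of Pepck1 without any of the 4. Both apolpp and SPARC are known above all from fat body and hemocytes, and in repo-negative cells their late levels were higher than in glia (792 and 962 CPM for apolpp, 184 and 84.6 CPM for SPARC). Of 12 glycolysis genes (median 1.53), 10 lay above in both late libraries, beside 22.5% of protein-coding genes. Of the 12, 3 rose (beside 1.8% of protein-coding genes) and 0 fell. They were Gapdh2 (8.74 and 15.3 CPM early, 71.2 and 37.2 CPM late, 2.17 ± 0.45, adjusted p = 0.011), Ald1 (41.1 and 58.2 CPM early, 182 and 129 CPM late) and Eno (17.6 and 31.1 CPM early, 84.3 and 64.7 CPM late). Their calls ended without replicate 1 of either stage, those of Ald1 and Eno also without 6-8 h replicate 2, and that of Eno without 18-22 h replicate 2 (adjusted p from 0.0721 to 0.247).

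**Figure D4:**
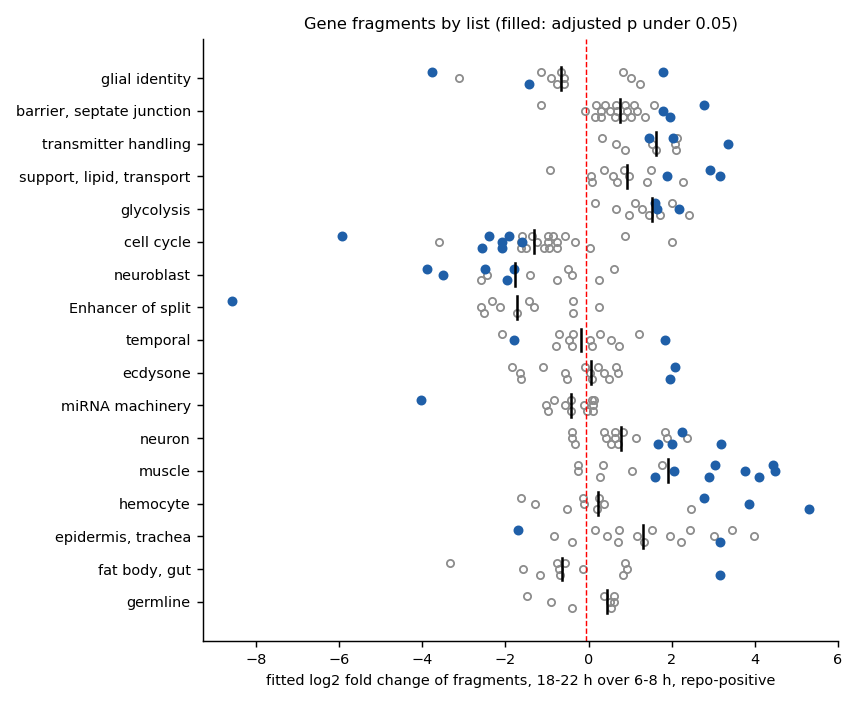
log2 fold change of 18-22 h over 6-8 h in repo-positive cells for each tested member of the gene lists (filled: called, open: not called, black line: median of the list, dashed line: median of all features, -0.07). Members of the cell cycle and neuroblast lists lie mostly on the left, and those of the transmitter, glycolysis and muscle lists mostly on the right.

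Fragments of some proliferation and progenitor genes fell in late glia. Of 26 cell cycle genes, 7 fell and 0 rose, beside 2.04% of protein-coding genes that fell. Their median was -1.30, and 20 lay below in both late libraries (76.9% beside 27.2% of protein-coding genes). This list, too, was chosen with earlier results of these data known. Fragments of polo, a mitotic kinase, went from 19.5 and 28.5 CPM to 3.41 and 4.70 CPM (-2.56 ± 0.43, adjusted p = 0.00223). Those of PCNA, the sliding clamp of replication, had 87 counts early and 1 late, a ratio of 75.9 with a 95% counting interval of 13.3 to 3031 (adjusted p = 0.00604). The cell cycle inhibitor gene dap, which acts at exit from the cycle, fell too, from 67.6 and 52.4 CPM to 6.14 and 16.7 CPM (-2.40 ± 0.48, adjusted p = 0.00841), along with the cyclin genes CycA and CycB3, the kinesin gene pav and the replication licensing gene dup (changes from -2.09 to -1.59). The calls of polo (-2.36, adjusted p = 0.0528) and dap (-1.85, adjusted p = 0.144) ended without 18-22 h replicate 1 and that of PCNA without 18-22 h replicate 2 (-5.12, adjusted p = 0.0819). Without single libraries those of CycA, CycB3, pav and dup ended as well, in 2 or 3 of the 4 fits each (adjusted p from 0.0737 to 0.535), and that of CycB3 also with a replicate block (adjusted p = 0.0561).

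Of 13 neuroblast genes, 5 fell and 0 rose, with a median of -1.78, beside 2.04% of protein-coding genes that fell. The gene mira, an adaptor of asymmetric division, went from 48.2 and 51.3 CPM to 6.55 and 11.1 CPM (-2.50 ± 0.40, adjusted p = 0.00153), and its call held without each library. Lower late levels were also called for the transcription factor genes wor (-3.51 ± 0.70), ase (-3.88 ± 0.95) and sna (-1.78 ± 0.47) and for insc (-1.97 ± 0.49), which orients the division spindle. These calls ended without single libraries: that of wor without either late library, those of ase and insc without any of the 4, and that of sna without any but 6-8 h replicate 2 (adjusted p from 0.0532 to 0.364). The Enhancer of split complex, a set of Notch target genes, had 1 of 11 members called lower and a median of -1.72. Its member E(spl)m4-BFM was at 3.83 and 7.75 CPM early and at 0 in both late libraries, at least 27.6-fold lower by the floor of 3 counts (adjusted p = 0.00535), a call that ended without either late library (adjusted p from 0.0518 to 0.058).

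Temporal identity, hormone and microRNA pathway genes moved singly. Of 14 temporal and heterochronic genes, 1 rose and 1 fell (median -0.17). Beside this list and the next ones stand 1.8% of protein-coding genes that rose and 2.04% that fell. Fragments of chinmo, a zinc finger protein of temporal identity, were at 63.7 and 70.1 CPM early and 289 and 190 CPM late (1.84 ± 0.30, adjusted p = 0.00159), and the call held without each library. Those of Kr, an early temporal factor, went from 33.6 and 25.2 CPM to 8.05 and 8.80 CPM (-1.802 ± 0.40, adjusted p = 0.0137), a call that held only without 6-8 h replicate 2 (adjusted p otherwise from 0.0914 to 0.152). Of 16 ecdysone pathway genes, the nuclear receptor genes ftz-f1 (15.3 and 21.5 CPM early, 87.8 and 56.9 CPM late, adjusted p = 0.0104) and Eip78C (6.01 and 8.68 CPM early, 34.5 and 28.2 CPM late, adjusted p = 0.0418) rose and 0 fell. The first call ended without replicate 1 of either stage and the second without any of the 4 libraries (adjusted p from 0.0973 to 0.229). Of 13 genes of the small RNA machinery, 1 fell and 0 rose (median -0.42): Hen1, which methylates the ends of Argonaute2-bound and piRNA small RNAs, went from 20.1 and 54.8 CPM to 0.955 and 3.64 CPM (-4.03 ± 0.98, adjusted p = 0.0261), a call that held only without 6-8 h replicate 1.

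Marker genes of other cell types moved in the repo-positive fraction between the stages too. Of 14 muscle genes, 8 rose and 0 fell (median 1.92), beside 1.8% of protein-coding genes that rose. Their summed level went from 462 and 701 CPM to 2198 and 1661 CPM. In repo-negative cells it was 342 and 420 CPM early and 3070 and 2439 CPM late. Fragments of Mhc, the muscle myosin heavy chain, were at 4.51 and 5.55 CPM early and 130 and 96.7 CPM late (4.48 ± 0.47, adjusted p = 5.88e-05), against 303 and 207 CPM in late repo-negative cells. The calls of Mhc, bt, Prm, Mlc2 and up held without each library, and those of Mlc1, Msp300 and sls did not (adjusted p from 0.0538 to 0.233). Of 12 hemocyte genes tested, 3 rose and 0 fell: Col4a1 (4.92 and 3.36 CPM early, 225 and 104 CPM late, 5.31 ± 0.59, adjusted p = 9.12e-05) and vkg, which encode collagen IV, and Pxn, whose call ended without any of the 4 libraries. In late repo-negative cells Col4a1 was at 2535 and 1203 CPM. The defining hemocyte gene Hml was at 4.65 and 1.85 CPM early and 4.23 and 4.10 CPM late, and He had 0 counts in all 4 libraries. Summed hemocyte markers were at 81.8 and 105 CPM early and 391 and 235 CPM late in repo-positive cells, and at 4118 and 1976 CPM in late repo-negative cells. Of 18 neuron genes, 4 rose and 0 fell (median 0.77), and the summed level went from 569 and 749 CPM to 904 and 992 CPM. In repo-negative cells it was 296 and 363 CPM early and 974 and 860 CPM late. Summed neuron markers were thus higher in the repo-positive fraction early, and the fractions overlapped late. Fragments of nSyb, a synaptic vesicle protein, were at 1.503 and 4.05 CPM early and 24.4 and 27.2 CPM late (3.19 ± 0.62, adjusted p = 0.00646), a call that ended without 6-8 h replicate 1 (2.67, adjusted p = 0.0776), as did that of the calcium channel gene cac (2.04, adjusted p = 0.0819). The calls of brp and Syt1, 2 further synaptic genes, ended without 2 and all 4 of the libraries, and that of Syt1 also with a replicate block (adjusted p = 0.0505).

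Lists of remaining cell types held few changes, given here beside 1.8% of protein-coding genes that rose and 2.04% that fell. Of 17 epidermis and trachea genes, Vajk1 rose (1.09 and 0.810 CPM early, 10.8 and 6.37 CPM late) and ovo fell (12.4 and 27.9 CPM early, 6.82 and 5.62 CPM late), with a median of 1.32 and a summed level of 53.8 and 65.8 CPM early and 86.5 and 146 CPM late. Both calls ended in 3 of the 4 fits that left out a library (adjusted p from 0.0698 to 0.378). Of 12 fat body and gut genes, 1 rose (apolpp) and 0 fell (median -0.63), and the summed level of the 13 matched genes was 44.1 and 77.9 CPM early and 168 and 267 CPM late. Of 8 germline genes 0 were called, with summed levels of 84.7 and 73.4 CPM early and 110.2 and 112 CPM late. The part that cells of other types had in the hairpin and fragment changes of the repo-positive fraction, among them those of mir-133, mir-927, mir-8 and mir-31a, was not tested.

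**Figure D5:**
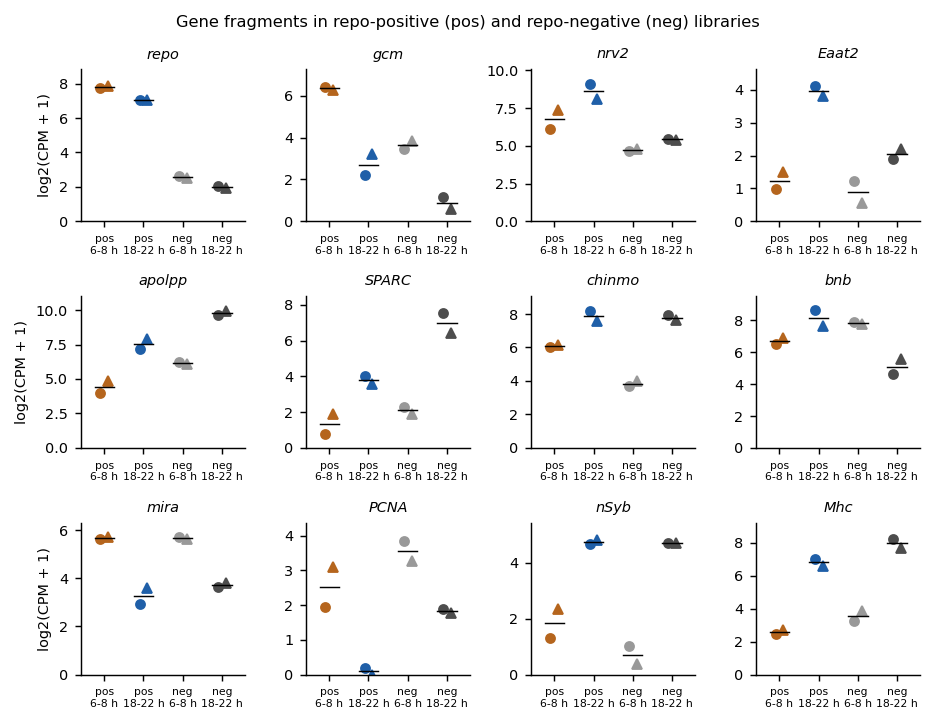
Fragment level of 12 genes as log2(CPM + 1) in the 2 early and 2 late libraries of the repo-positive and repo-negative fractions (1 panel per gene, 1 point per library, black line: group mean). In repo-positive cells repo lies at 130 to 235 CPM at both stages, gcm, mira and PCNA are lower late, and nrv2, Eaat2, chinmo and Mhc are higher late.

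Among called protein-coding genes with at least 10 CPM in the higher stage, some of the steepest rises were of genes known from the cuticle. Fragments of Osi19, a gene of the Osiris family of the insect epidermis, had 0 counts early and 177 late (0 CPM in both early libraries, 13.4 and 12.0 CPM late), at least 67.7-fold higher by the floor (adjusted p = 0.00237). The cuticle gene TwdlF had 1 count early and 263 late, a ratio of 302 with a counting interval of 53.7 to 11960, and nur had 1 count early and 803 late, a ratio of 921 with an interval of 165 to 36410. Further steep rises were of CG2962 (6.21 ± 1.00), Osi6 (5.51 ± 1.11), CG10211 (5.38 ± 0.82), CG13159 (5.19 ± 1.03), Msr-110 (5.14 ± 1.02) and CG14756 (5.01 ± 1.09). The calls of Osi19, nur, CG2962 and CG10211 held without each library, and those of TwdlF, Osi6, CG13159, Msr-110 and CG14756 ended without 1 to 3 of them (adjusted p from 0.0523 to 0.127). Looked at after these values were seen, the Osiris family had 14 genes tested. Of these, 6 rose and 0 fell, beside 1.8% of protein-coding genes that rose. In repo-negative cells 8 were called, beside 11.4% of all features. Of 16 Tweedle cuticle genes tested, 1 rose in repo-positive cells, again beside 1.8% of protein-coding genes.

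Among called protein-coding genes with at least 10 CPM in the higher stage, the 10 steepest falls follow, while genes below that minimum such as E(spl)m4-BFM and PCNA fell as steeply. Fragments of CG34112 were at 16.1 and 56.4 CPM early and 0 in both late libraries, at least 176-fold lower by the floor (adjusted p = 0.00112). Those of ND-51L1, annotated as similar to a subunit of respiratory complex I, went from 34.2 and 57.0 CPM to 1.36 and 1.67 CPM (-4.90 ± 0.57, adjusted p = 0.00013). Both calls held without each library. The rest of the group were CG10081, CG30001, CG15927, Pmvk, CG6550, CG13186, aln and CG10934, with changes from -5.93 to -4.93. The calls of CG6550 and CG13186 among these held without each library, and the others ended without at least 1 of them (adjusted p from 0.0514 to 0.147).

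Some small nucleolar RNAs, which guide the modification of ribosomal RNA, rose in late glia relative to the other features. Of 249 tested, 25 rose (10%, beside 1.85% of all features) and 0 fell, and the median was 0.85. In both late libraries 176 (70.7%) lay above and 2 (0.803%) below, beside 23.7% and 26.1% of all features. The direction rests on the scaling: on their own total, 1 rose and 2 fell, with a median of -0.08. It also rests on single libraries, since 1 was called without 6-8 h replicate 2, 4 without 18-22 h replicate 2, 13 without 18-22 h replicate 1 and 24 without 6-8 h replicate 1. Among snoRNAs with at least 10 CPM in the higher stage, the steepest rise was of snoRNA:U49:66Db, with 323 and 137 CPM early and 1273 and 5820 CPM late (3.95 ± 0.84, adjusted p = 0.0119), so that the late libraries also differed widely from each other. The rise of snoRNA:Psi28S-3316a, from 3.01 and 1.39 CPM to 21.7 and 34.8 CPM (3.69 ± 0.66, adjusted p = 0.00327), kept its call on the snoRNA total (2.75, adjusted p = 0.0145) and lost it without 6-8 h replicate 2 (3.22, adjusted p = 0.0663). Of 289 tRNA genes, 1 rose (0.346%, beside 1.85% of all features) and 0 fell. This was tRNA:Thr-AGT-1-7, at 4.51 and 2.55 CPM early and 14.5 and 14.7 CPM late (2.05 ± 0.54, adjusted p = 0.0401). Its call ended without any of the 4 libraries and on the tRNA total. Near-identical tRNA copies share reads, so the gene of origin is uncertain.

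Few fragment changes of glia were called different from those of the rest of the embryo, and those not called are not shown to be alike. In repo-negative cells 1341 features changed between the stages (11.4%) and in elav-positive cells 355 (3.03%). The edgeR test of the difference between repo-positive and repo-negative cells called 10 of 11726 features (0.0853%), and 997 had an unadjusted p under 0.05. DESeq2 called 136. Of the 10 called by edgeR, 1 had a higher and 9 had a lower change in glia. The gene with the higher change was bnb, whose fragments rose in glia from 90.2 and 120 CPM to 394 and 196 CPM while in repo-negative cells they went from 236 and 216 CPM to 24.1 and 46.1 CPM (difference 4.18 ± 0.54, adjusted p = 0.00208). The fractions thus changed places, and this call held without each of the 8 libraries. Within glia alone the rise of bnb (1.49 ± 0.38, adjusted p = 0.0316) ended without either early library or 18-22 h replicate 1 (adjusted p from 0.109 to 0.442). For chinmo the rise was smaller in glia, which began at 63.7 and 70.1 CPM, than in repo-negative cells, which went from 11.7 and 14.8 CPM to 247 and 196 CPM (difference -2.22 ± 0.42, adjusted p = 0.0423). The late levels of both fractions overlapped for chinmo, as they did for mir-87.

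The authors also deposited a table of microRNA and gene pairs for this stage comparison in glia, with a log2 fold change and an adjusted p for each partner. The authors' deposited table held 3304 pairs of 34 microRNAs and 1275 genes, and the partners had opposite signs in all pairs. The direction of its fold changes is not stated. They were read as 18-22 h over 6-8 h because all 34 microRNAs of the authors' deposited table then have the same sign as here, so that agreement is fixed by the choice and supports nothing. Of the 34 microRNAs in the authors' deposited table, 24 were called here. The hairpins mir-955, mir-14, mir-957, mir-8 and mir-990 were called here and were not in the authors' deposited table. How its gene values were measured, and in which libraries, is not given in the sources used here. Whether they are independent of the fragments here was not tested. Of the 1275 genes in the authors' deposited table, 1262 had fragments tested here, 1121 of them with the same sign under that reading (88.8%). Fragments of 146 were called here, 145 with the same sign under it.

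The following values of the authors' deposited table are for genes described above. In the authors' deposited table gcm had a change of -3.67 and was paired with mir-932. There ttk had -1.28 in the authors' deposited table and was paired with mir-137, mir-283, mir-927 and mir-987. Of these hairpins, mir-932, mir-137 and mir-283 were not called here. Eaat2 (2.93), alrm (1.89) and SPARC (3.13) in the authors' deposited table were each paired with mir-310, mir-311, mir-312, mir-92a and mir-92b. All of these hairpins fell in glia here. Since all pairs of the authors' deposited table have opposite signs, the opposite signs within these pairs support nothing. Pairs of mir-277 in the authors' deposited table included polo (-3.28), mira (-2.02), Kr (-1.86) and dap (-2.67). In the authors' deposited table chinmo (2.38) was paired with mir-275, mir-305, mir-4 and mir-995, of which only mir-275 was called here. Other members of the glial lists lay further from their fragments, such as NLaz with 1.73 in the authors' deposited table against 0.07 here, and Tret1-1 with 2.89 in the authors' deposited table against 1.499 here. The pairing had been made by the authors, and no binding of a microRNA to these genes was measured in these files.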

How the data were processed

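Small RNA libraries (NEBNext Small RNA, 51-base single reads) of 20 sorted cell samples in 10 groups were analysed, with 2 libraries per group. The deposited files held expected counts per gene, which the authors made with featureCounts 1.5.1 on Ensembl release 85 exons of BDGP6, strand-specific, with multi-mapping reads counted as fractions and overlapping features all counted, per the file headers. Bowtie 1.1.2, SAMtools 1.8 and DESeq2 were also used, per the submitters' processing notes. The authors' deposited table of pairs held log2 fold changes and adjusted p-values, computed by the authors in a way not given in the sources used here, and 10 further tables of that kind were not used.

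Expected counts were rounded to whole numbers. The fit was edgeR 4.0.16's quasi-likelihood test (R 4.3.3) over all 10 groups with TMM scaling and filterByExpr, on the hairpins and on the other features separately, with Benjamini-Hochberg adjustment within each contrast at 0.05. Another 59 features that overlap a hairpin were left out, and 73 hairpins share an exon with another gene. Gene names came from a gene table and Ensembl release 115 for 17253 of 17559 features. Residual degrees of freedom were 10, and the biological coefficient of variation was 0.540 for hairpins and 0.511 for the others. The scripts were tested on simulated data. DESeq2 1.42.0, other scalings, no filter, a replicate block and left-out libraries were the alternatives. Counts and intervals used Python 3.11.15, pandas 2.3.3 and scipy 1.17.1, and the figures matplotlib 3.10.9.

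Named hairpins were those called without overlap between the stages, up to 15 per direction with at least 10 CPM in the higher stage, plus the 10 most abundant of each stage and the members of the lists. Named fragments were the called list members, up to 10 protein-coding genes and 6 snoRNA or tRNA genes per direction with the same minimum, and up to 6 per direction whose change differed from repo-negative cells. The genes Cht8, Ank2, Gr59e and eIF3d2, the host genes of hairpins and the Osiris and Tweedle families were chosen outside this rule, after their values were seen. The members and lists were chosen with earlier results of these data known. The genes para, VAChT, wupA, PPO1, btl, tyn, vas, Mcm3, Orc1, br, nvd, phm and Imp were not analysed here.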

Additional observations from a re-analysis of the deposited data

Results flagged for a closer look

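The stage change differed between repo-positive and repo-negative cells, by the edgeR test of the difference itself, for 1 hairpin and 10 other features. For mir-87 the difference was -4.01, with 577 and 800 CPM early in glia against 47.3 and 55.6 CPM in the remaining cells. For bnb it was 4.18, and for chinmo it was -2.22. These were described with their levels above.

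In some genes the fragments fell in glia and not in the remaining cells. For CG6550 the levels went from 13.9 and 7.29 CPM to 0.136 and 0.455 CPM in glia and from 5.43 and 8.10 CPM to 18.3 and 13.5 CPM in repo-negative cells (difference -6.35 ± 1.04, adjusted p = 0.0175). For Ntf-2r, whose name marks it as related to nuclear transport factor 2, they went from 21.9 and 25.5 CPM to 1.91 and 1.06 CPM in glia and from 10.3 and 19.7 CPM to 18.8 and 12.8 CPM in the others (-4.05 ± 0.76, adjusted p = 0.0423). For CG2604 they went from 53.3 and 33.6 CPM to 4.91 and 6.83 CPM in glia and from 14.4 and 26.4 CPM to 56.9 and 30.2 CPM in the others (-3.98 ± 0.72, adjusted p = 0.0423). Levels of teq, a serine protease gene, went from 43.0 and 29.3 CPM to 6.55 and 7.13 CPM in glia and from 12.3 and 12.2 CPM to 38.7 and 36.1 CPM in the others (-4.01 ± 0.74, adjusted p = 0.0423). Late levels in glia lay below those of repo-negative cells for all 4 genes, and early levels lay above them for all but CG6550, where the fractions overlapped.

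In the remaining genes the fragments rose more in repo-negative cells. The chitinase family gene Cht8 was at 7.10 and 8.33 CPM early and 3.27 and 1.52 CPM late in glia, and at 2.35 and 2.14 CPM early and 32.3 and 31.0 CPM late in the others (-5.48 ± 0.83, adjusted p = 0.00988). The matrix gene Tig went from 15.6 and 20.8 CPM to 99.4 and 68.4 CPM in glia and from 13.9 and 14.5 CPM to 825 and 488 CPM in the others (-3.32 ± 0.62, adjusted p = 0.0423). The ankyrin gene Ank2, which stabilises synapses, went from 117 and 136 CPM to 183 and 183 CPM in glia and from 22.4 and 15.7 CPM to 176 and 159 CPM in the others (-2.60 ± 0.43, adjusted p = 0.0175). The muscle gene zormin was at 34.4 and 68.3 CPM early and 60.6 and 55.2 CPM late in glia, and at 5.28 and 5.35 CPM early and 61.8 and 44.8 CPM late in the others (-3.15 ± 0.60, adjusted p = 0.0447). Without single libraries of the 8 in turn, the calls of mir-87 and bnb held in all 8 fits, those of Ntf-2r and teq ended in 7, those of CG2604, Tig and zormin in 6 and that of CG6550 in 5 (adjusted p from 0.0519 to 0.238). Without repo-positive 18-22 h replicate 2 or either early repo-negative library only bnb was called among the other features, so the calls of Cht8, Ank2 and chinmo ended there too.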

How the results depend on the processing

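Against 29 hairpins called between the stages in repo-positive cells, scaling on all features gave 1, leaving out both elav 6-8 h replicate 2 libraries gave 44, and leaving out 1 repo-positive library gave 11 to 16. For the difference from repo-negative cells, against 1 hairpin there were 3 with RLE size factors, 17 with DESeq2, 9 with no filter, 9 with total count scaling, 0 with scaling on all features (3 at an unadjusted edgeR p under 0.05), 17 without both elav 6-8 h replicate 2 libraries, and 1 to 11 without 1 library. For the difference from elav-positive cells, without 1 library there were 0 to 14 hairpins, the 14 without elav-positive 6-8 h replicate 1. Against 434 other features there were 865 with DESeq2 and 136 to 195 without 1 library. For their difference from repo-negative cells, against 10 there were 25 with RLE size factors, 136 with DESeq2, 84 with no filter, 5 with total count scaling, 18 with scaling on all features, 56 without both elav 6-8 h replicate 2 libraries, and 1 to 17 without 1 library. The change of mir-286 was 0.0072 with scaling on all features. The cause of these shifts was not tested.

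The labels do not pair the replicate numbers. Same-numbered deviations of the 2 repo-positive groups had a correlation of 0.190 over hairpins and 0.00719 over other features. With a replicate block the counts were 28 hairpins and 412 other features between the stages and 40 other features that differed from repo-negative cells. The block ended the calls of mir-996, Syt1 and CycB3 among the genes described. CycB3 also lost its call with RLE size factors, no filter and scaling on all features. The 4 repo-positive libraries alone gave 31 hairpins, 25 of them among the 29, and 444 other features, 303 of them called before. That fit ended the calls of mir-ban, mir-276a, mir-14, mir-957, nrv2, bnb, Gs1, Pepck1, ase, sna, insc, Mlc1, ovo, dup and CycB3. Over single features and alternatives, 1995 of 2377 values kept their direction and side of the threshold, 349 were no longer called, 32 became called and 1 turned. Of the 29 hairpins, 5 were called in all 4 fits without 1 repo-positive library and 10 in none. With 2 libraries per stage, hairpins below the filter, at most 17 counts in all, allow no statement.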

Other observations

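Levels of 2 genes chosen after their values were seen are given here. Fragments of Gr59e, a member of the gustatory receptor family, were at 287 and 150 CPM early and 12.1 and 3.64 CPM late in repo-positive cells, and at 121 and 101 CPM early and 11.9 and 1.495 CPM late in elav-positive cells. In elav-negative cells they were at 28.6 and 15.4 CPM early and 362 and 269 CPM late, and in repo-negative cells at 94.6 and 162 CPM early and 239 and 95.4 CPM late. Fragments of eIF3d2, which encodes a translation initiation factor subunit, were at 239 and 351 CPM early and 13.6 and 6.83 CPM late in repo-positive cells and at 85.4 and 140 CPM early and 89.5 and 68.0 CPM late in repo-negative cells.

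Of the 29 hairpins that changed in glia, 21 lie inside another gene on the same strand (72.4%), beside 113 of all 148 tested (76.4%).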
